A study of Rattus norvegicus with 8 samples.

Results

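The genes described here are 10 transcripts that mark reactive astrocytes, 5 of the A1 set (Amigo2, Gbp2, Srgn, Fkbp5 and Fbln5) and 5 of the A2 set (Tm4sf1, Cd109, Emp1, S100a10 and B3gnt5). They were taken by gene symbol from a raw count table of 28546 gene entries. All 10 were found there, and all 10 were among the 14445 genes with enough counts to be tested. The libraries are RNA-seq of Sprague Dawley rat pup astrocytes from an experiment with the melanoma culture 12-273 BM. For the sh-APP libraries (n = 3) the labels give melanoma carrying shAPPa, a hairpin against the amyloid precursor protein, and name no antibody. For the anti-Abeta libraries (n = 3) they give melanoma carrying the hairpin named Scr, with antibody to amyloid beta. For the control libraries (n = 2) they give melanoma carrying Scr, with no antibody named. Numbers ending the labels run in blocks: 1 and 2 for control, 4 to 6 for anti-Abeta, 7 to 9 for sh-APP. What these numbers stand for is not stated. The labels put every group with melanoma, and astrocytes kept without melanoma were not analysed here. How the astrocytes met melanoma is not clear: the labels name a co-culture, an incubation in medium from melanoma for 24 h, and medium from astrocytes put on the melanoma cells. Every group rests on 1 melanoma culture, and sh-APP on 1 hairpin label.

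Reactive astrocytes are astrocytes that respond to injury, infection or disease. The A1 set was defined in mice from astrocytes after an inflammatory stimulus, and in culture it is induced by interleukin 1 alpha, tumor necrosis factor and the complement protein C1q. The A2 set was defined in mice from astrocytes after a loss of blood flow. Astrocytes can carry genes of either set at once, so each gene is described on its own before the sets are summarised.

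The promoters of 8 of the 10 genes were matched in RefSeq (build GRCr8, 250 bases before to 50 bases after the annotated start), a later build than the rn6 of the count table. Those of Tm4sf1 and B3gnt5 are printed because these A2 genes were the ones most lowered in sh-APP, and those of Emp1 and Gbp2 because they held a motif searched for. Capitals mark motif matches, and a sequence without capitals held none.
Tm4sf1, chr2:143616127-143616426 (minus strand): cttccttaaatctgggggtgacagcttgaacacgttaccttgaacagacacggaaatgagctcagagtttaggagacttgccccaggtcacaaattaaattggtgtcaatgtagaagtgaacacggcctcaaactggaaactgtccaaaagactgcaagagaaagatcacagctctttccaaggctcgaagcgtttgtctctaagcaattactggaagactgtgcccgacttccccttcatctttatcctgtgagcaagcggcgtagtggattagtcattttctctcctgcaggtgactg
B3gnt5, chr11:94657535-94657834 (minus strand): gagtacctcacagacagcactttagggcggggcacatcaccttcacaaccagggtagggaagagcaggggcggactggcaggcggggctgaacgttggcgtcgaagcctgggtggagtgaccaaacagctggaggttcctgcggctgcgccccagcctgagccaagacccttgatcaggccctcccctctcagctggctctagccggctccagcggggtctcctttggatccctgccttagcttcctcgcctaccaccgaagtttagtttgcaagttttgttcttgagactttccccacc
Emp1, chr4:169943980-169944279 (plus strand): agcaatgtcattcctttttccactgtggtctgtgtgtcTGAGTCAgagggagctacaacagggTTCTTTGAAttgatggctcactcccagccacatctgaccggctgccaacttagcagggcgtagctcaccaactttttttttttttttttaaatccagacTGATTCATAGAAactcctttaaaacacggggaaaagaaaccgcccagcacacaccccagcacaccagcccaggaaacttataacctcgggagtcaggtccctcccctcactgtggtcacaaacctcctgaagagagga
Gbp2, chr2:234005477-234005776 (plus strand): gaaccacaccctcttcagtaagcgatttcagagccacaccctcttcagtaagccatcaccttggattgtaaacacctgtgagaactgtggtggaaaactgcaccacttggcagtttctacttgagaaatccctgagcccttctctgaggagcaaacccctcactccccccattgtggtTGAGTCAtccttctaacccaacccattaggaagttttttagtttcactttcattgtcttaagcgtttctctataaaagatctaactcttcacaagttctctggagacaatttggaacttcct
The motifs were TTCNNNGAA for STAT factors, TGANTCA for AP-1 and the kB consensus for NF-kB, searched on both strands. Emp1 held the STAT motif at -187 and -85 and the AP-1 motif at -212 and -88, counted from the start, and the matches at -88 and -85 overlap. Gbp2 held AP-1 at -72. Of 33469 rat promoters of the same length, 8.87% held the STAT motif, 7.33% the AP-1 motif and 7.51% the NF-kB motif. A match shows the letters only, and factor binding was not measured.

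Depth was similar in all groups, with 34250464 to 47831595 counts per library. Levels below are CPM, counts scaled by library total after TMM correction for composition. Fold changes are on the log2 scale with their standard error (SE), and a gene is called when edgeR's quasi-likelihood test gives a Benjamini-Hochberg adjusted p under 0.05 over all tested genes. The 10 astrocyte markers listed, Gfap, Aqp4 and Aldh1l1 among them, summed to 17053 to 19545 CPM in sh-APP, 13928 to 14931 CPM in anti-Abeta, and 15801 and 16165 CPM in control. They did not move as one: against control 7 of the 10 were called higher and 1 lower in sh-APP, and 4 higher and 3 lower in anti-Abeta. Of all tested genes 53.7% were called in sh-APP and 29.2% in anti-Abeta. Gfap, a filament protein, rose by 1.17 ± 0.11 in sh-APP (adjusted p = 8.18e-06), Gja1, a gap junction protein, fell by 0.78 ± 0.11 (adjusted p = 7.78e-05), and Aqp4, a water channel, was at 0.037 ± 0.094 (adjusted p = 0.763). The labels do not say whether the libraries within a group are separate cultures, and p-values then measure only the spread between these libraries, which may be technical. In such bulk samples fewer cells that express a gene and less RNA per cell cannot be told apart.

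**Figure D1:**
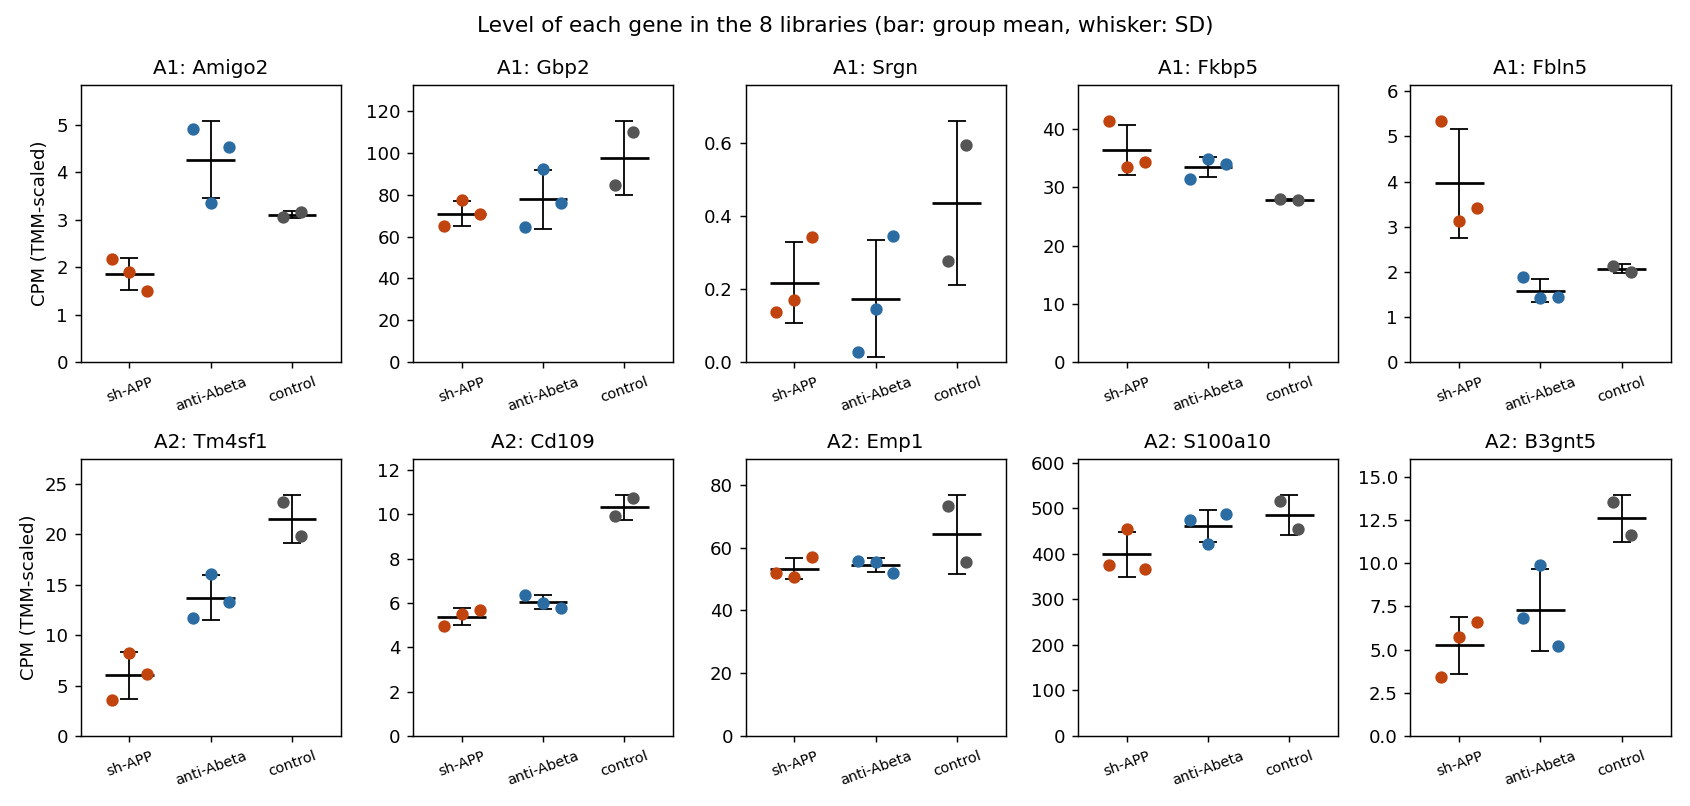
CPM (y axis, from 0, a separate scale for each gene) of the 5 A1 genes (upper row) and the 5 A2 genes (lower row) in the sh-APP, anti-Abeta and control libraries. Points are libraries, bars are means and whiskers SD. Tm4sf1 sits at 3.60 to 8.23 CPM in sh-APP, 11.7 to 16.1 CPM in anti-Abeta and 19.8 to 23.2 CPM in control.

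The first question was what the hairpin in the melanoma cells changed among these genes in the astrocytes. The 5 A2 genes described here had lower levels, and all 5 had a negative fold change against control. Of these 5, 4 were called lower (Tm4sf1, Cd109, S100a10 and B3gnt5) and 0 higher. With the further A2 genes given below, 4 of 11 tested genes were called higher and 4 lower. Across all tested genes 53.7% were called (25.8% of all tested genes were higher and 27.9% lower), and 48.7% had a negative fold change. The A1 genes went both ways: Fkbp5 and Fbln5 were called higher, Amigo2 and Gbp2 lower, and Srgn was not called. The count of 4 A1 genes called was 0 when control replicate 2 was left out, 1 without control replicate 1 and 2 without sh-APP replicate 1. Libraries of sh-APP and control did not overlap for 7 of the 10, beside 70.7% of all tested genes. The median fold change was -0.94 for the 5 A2 genes and -0.46 for the 5 A1 genes, beside 0.027 for all tested genes. No A2 gene was called higher at an unadjusted p under 0.05, with DESeq2 or with limma-voom, and 5, 5 and 4 were called lower by these rules.

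Tm4sf1, which encodes a tetraspanin-like membrane protein found on endothelial and tumor cells, had the largest fold change of the 10 in sh-APP. It stood at 3.60, 8.23 and 6.18 CPM in the sh-APP libraries, at 11.7, 16.1 and 13.3 CPM in the anti-Abeta libraries, and at 23.2 and 19.8 CPM in the control libraries. The sh-APP libraries were the lowest and the controls the highest, and no groups overlapped. Its fold change in sh-APP was -1.84 ± 0.26 (adjusted p = 8.40e-05), a level 0.280 times that of control. In anti-Abeta it was -0.65 ± 0.25 and was not called (adjusted p = 0.0699). The direct test of sh-APP against anti-Abeta gave -1.19 ± 0.24 (adjusted p = 0.00403). The call in sh-APP held with each of the 8 libraries left out in turn, with fold changes from -2.13 to -1.57.

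B3gnt5 makes the lactotriaosyl core on which the lacto-series of glycosphingolipids is built. Its levels were 3.40, 5.74 and 6.59 CPM in sh-APP, 6.82, 9.88 and 5.20 CPM in anti-Abeta, and 13.6 and 11.6 CPM in control. Each arm lay wholly below control, and the arms overlapped each other. It fell by 1.26 ± 0.28 on the log2 scale in sh-APP (adjusted p = 0.00228), a call that held with each library left out. Its fold change in anti-Abeta was -0.79 ± 0.28 (adjusted p = 0.0523), with a 95% interval of -1.40 to -0.18. With anti-Abeta replicate 2 left out, the highest library of that arm, it was called lower there (-1.09, adjusted p = 0.00831).

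Cd109 encodes a protein anchored at the cell surface that binds TGF-beta and its receptor. It was at 4.95, 5.49 and 5.70 CPM in sh-APP, at 6.36, 6.02 and 5.77 CPM in anti-Abeta, and at 9.92 and 10.7 CPM in control. The arms lay close together and below both controls. In the main edgeR fit it was the only member called in both arms. DESeq2 and limma-voom each called 3 A2 members lower in anti-Abeta. By edgeR the fold changes of Cd109 were -0.94 ± 0.15 in sh-APP (adjusted p = 0.000236) and -0.77 ± 0.15 in anti-Abeta (adjusted p = 0.00473). Both calls held with each library left out. The arms share the 2 control libraries. The difference between sh-APP and anti-Abeta was -0.17, with a 95% interval of -0.47 to 0.13.

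S100a10 encodes p11, the partner of annexin A2 at the membrane. It stood at 376, 455 and 366 CPM in sh-APP, at 474, 422 and 488 CPM in anti-Abeta, and at 517 and 454 CPM in control, so each pair of groups overlapped. It was called lower in sh-APP (-0.28 ± 0.10, adjusted p = 0.0356). The call was lost on leaving out control replicate 1 (adjusted p = 0.294), sh-APP replicate 1 (0.109) or sh-APP replicate 3 (0.124), with upper-quartile factors (0.126) or library totals (-0.079, adjusted p = 0.542), and with the replicate block (0.0644). In anti-Abeta its fold change was -0.073 ± 0.10 (adjusted p = 0.638).

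Emp1, a membrane protein of the PMP22 family, was at 52.0, 50.8 and 57.1 CPM in sh-APP, 55.8, 55.5 and 51.8 CPM in anti-Abeta, and 73.1 and 55.3 CPM in control. Control replicate 1 stood apart from the other 7 libraries. Its fold changes of -0.27 ± 0.11 in sh-APP (adjusted p = 0.0583) and -0.24 ± 0.11 in anti-Abeta (adjusted p = 0.125) were not called. With control replicate 2 left out they were called, at -0.44 (adjusted p = 0.00682) and -0.43 (adjusted p = 0.0260).

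Among the A1 genes, Fbln5 encodes fibulin-5, which helps to assemble elastic fibers. Its levels were 5.34, 3.13 and 3.41 CPM in sh-APP, 1.88, 1.42 and 1.45 CPM in anti-Abeta, and 2.14 and 1.998 CPM in control. The sh-APP libraries were above all others, and the anti-Abeta libraries were below the controls. It rose by 0.93 ± 0.29 in sh-APP (adjusted p = 0.0164) and stood at -0.39 ± 0.29 in anti-Abeta (adjusted p = 0.346). Sh-APP exceeded anti-Abeta by 1.33 ± 0.26 (adjusted p = 0.00358), a call that held with each library left out. The call against control was lost when sh-APP replicate 1 (adjusted p = 0.0803), control replicate 1 (0.0679) or control replicate 2 (0.0844) was left out.

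Amigo2, an adhesion protein with leucine-rich repeats, moved the other way. It was at 2.17, 1.91 and 1.51 CPM in sh-APP, at 4.91, 3.35 and 4.54 CPM in anti-Abeta, and at 3.06 and 3.16 CPM in control. The anti-Abeta libraries were highest and the sh-APP libraries lowest, with no overlap between groups. It was called lower in sh-APP against control (-0.74 ± 0.25, adjusted p = 0.0248). That call was lost on leaving out control replicate 1 (adjusted p = 0.0837), control replicate 2 (0.102) or sh-APP replicate 3 (0.0812), and with library totals in place of TMM (0.0971). In anti-Abeta it was at 0.46 ± 0.25 (adjusted p = 0.188). The difference between sh-APP and anti-Abeta was -1.19 ± 0.22 (adjusted p = 0.00304) and held with each library left out. Amigo2 overlaps Pced1b on the chromosome in GRCr8, and Pced1b was not called in sh-APP against control (0.11 ± 0.39, adjusted p = 0.837) or against anti-Abeta (0.25 ± 0.35, adjusted p = 0.649).

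Fkbp5 encodes FKBP51, a cochaperone of HSP90 that lowers the hormone affinity of the glucocorticoid receptor and is itself a target of that receptor. It stood at 41.4, 33.5 and 34.5 CPM in sh-APP, at 31.5, 34.8 and 34.1 CPM in anti-Abeta, and at 28.0 and 27.8 CPM in control. Both arms lay above the controls and overlapped each other. It rose by 0.38 ± 0.11 in sh-APP (adjusted p = 0.0107), a call lost on leaving out control replicate 1 (adjusted p = 0.0605) or 2 (0.0557). In anti-Abeta its fold change was 0.26 ± 0.11 (adjusted p = 0.0942), and the arms differed by 0.12, with a 95% interval of -0.089 to 0.33.

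Gbp2, a guanylate-binding GTPase induced by interferon, was at 65.0, 77.3 and 70.6 CPM in sh-APP, at 64.6, 92.5 and 76.2 CPM in anti-Abeta, and at 84.8 and 109.9 CPM in control. The sh-APP libraries lay below the controls, while anti-Abeta replicate 2 lay between the controls. It was called lower in sh-APP (-0.46 ± 0.14, adjusted p = 0.0170). The call was lost on leaving out control replicate 2 (-0.24, adjusted p = 0.292) or sh-APP replicate 1 (adjusted p = 0.0534), and with library totals (0.132). In anti-Abeta it was at -0.32 ± 0.14 (adjusted p = 0.108), and it was called there when anti-Abeta replicate 2 was left out (-0.48, adjusted p = 0.0126) and with the replicate block (adjusted p = 0.0257).

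Srgn, the core protein of a proteoglycan of secretory granules in blood cells, had 6, 8 and 15 counts in sh-APP, 1, 6 and 17 counts in anti-Abeta, and 10 and 22 counts in control. At this depth no difference was detectable: the 95% interval of its fold change ran from -2.81 to 0.81 in sh-APP and from -3.09 to 0.58 in anti-Abeta. Microglia markers were also scarce, with 7 of the 8 listed in the table and Cx3cr1 at 0 in every library. They summed to 1.39 to 2.12 CPM in sh-APP, 1.34 to 1.65 CPM in anti-Abeta, and 0.513 and 0.778 CPM in control. Of the 3 tested, 1 (Tyrobp) was called higher in sh-APP, beside 25.8% of all tested genes. Their part in the level of Srgn was not tested.

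The next question was what the antibody changed. Of the 10 genes 1 was called against control, Cd109, which was lower, while 29.2% of all tested genes were called (12.7% of all tested genes were higher and 16.6% lower). Of the 5 A1 genes 0 were called by edgeR, DESeq2 or limma-voom, and at an unadjusted p under 0.05 there were 2, Fkbp5 higher and Gbp2 lower. All 5 A2 genes had a negative fold change, beside 47.8% of all tested genes, with a median of -0.65. DESeq2 and limma-voom each called 3 of the A2 genes lower. With edgeR the count of 1 became 3 without anti-Abeta replicate 2, 3 without sh-APP replicate 1, 2 without sh-APP replicate 2 and 2 without control replicate 2. The A1 genes had a median of -0.32, and the median of all tested genes was 0.027. Libraries of anti-Abeta and control did not overlap for 6 of the 10 genes, beside 54.9% of all tested genes.

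By their labels sh-APP and anti-Abeta differ in both the hairpin and the antibody. Their direct comparison called 3 of the 10 genes, beside 26.1% of all tested genes. These were Amigo2 and Tm4sf1, which were lower in sh-APP (16% of all genes were), and Fbln5, which was higher (10.1% of all genes were). All 3 calls held with each library left out and under the 10 other alternatives. The remaining 7 genes were not called, with fold changes from -0.47 for B3gnt5 to 0.26 for Srgn. The interval for B3gnt5 was -1.04 to 0.092, and that for Srgn was -1.47 to 1.99. Libraries of the arms did not overlap for 4 of the 10 genes, beside 41.3% of all tested genes.

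**Figure D2:**
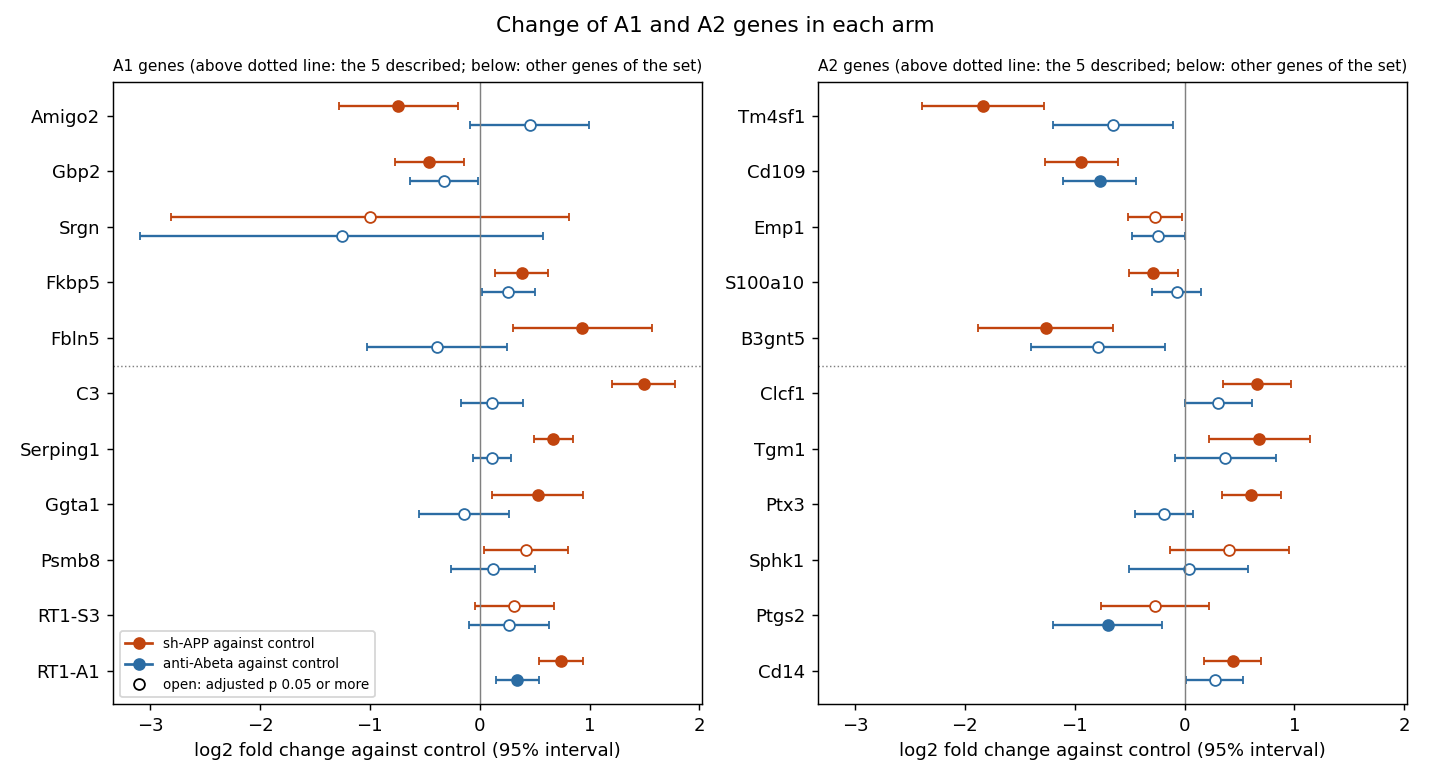
Log2 fold change against control (x axis, with 95% intervals) for A1 genes (left) and A2 genes (right) in sh-APP and, beneath it, anti-Abeta. Filled points were called and open ones were not. The 5 A2 genes above the dotted line all lie left of 0, while 5 of the 6 A2 genes below it lie right of 0 in sh-APP.

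Further genes listed for the published sets were read beside these 10. The A1 list holds the rat class I genes RT1-S3 and RT1-A1, whose match to genes of the mouse set was not tested. Of 8 further A1 genes 6 were tested, and 4 rose in sh-APP with 0 lower (by DESeq2 and limma-voom as well, and 5 and 0 at an unadjusted p under 0.05). Of 7 further A2 genes 6 were tested, and 4 rose with 0 lower by each of these rules. In each list 66.7% of the tested genes were called, beside 53.7% of all tested genes (25.8% higher and 27.9% lower). Their medians were 0.60 for the A1 genes and 0.52 for the A2 genes, beside -0.46 and -0.94 for the 5 of each set described above. Taken with those 5, the median was 0.42 over 11 tested A1 genes (6 higher and 2 lower). It was -0.27 over 11 tested A2 genes (4 higher and 4 lower). The difference between the lists was not tested.

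C3, the central component of complement, stood at 108, 110.4 and 138 CPM in sh-APP, at 45.7, 45.5 and 45.9 CPM in anti-Abeta, and at 36.3 and 48.2 CPM in control. The sh-APP libraries were above all others, and the anti-Abeta libraries lay between the 2 controls. The fold change was 1.49 ± 0.13 in sh-APP (adjusted p = 5.61e-06), and sh-APP exceeded anti-Abeta by 1.38 ± 0.11 (adjusted p = 5.98e-05). Serping1, the inhibitor of the first complement proteases, rose by 0.67 ± 0.081 in sh-APP (adjusted p = 3.27e-05). The class I gene RT1-A1 was called higher in both arms, at 0.74 ± 0.092 in sh-APP (adjusted p = 3.81e-05) and 0.34 ± 0.091 in anti-Abeta (adjusted p = 0.0163). The anti-Abeta call of RT1-A1 was lost when control replicate 1 was left out (adjusted p = 0.169), and near-identical RT1 genes can split reads. Ggta1, a galactosyltransferase, was called in sh-APP (0.53 ± 0.19, adjusted p = 0.0324), but not on leaving out control replicate 1 (0.165), control replicate 2 (0.0861), sh-APP replicate 1 (0.0665) or sh-APP replicate 3 (0.104), nor with the replicate block (0.0623). Psmb8, of the immunoproteasome, had 0.42 (adjusted p = 0.0590) and RT1-S3 0.32 (adjusted p = 0.131), and neither was called in sh-APP.

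Among the further A2 genes, Clcf1, a cytokine that signals through gp130, was at 27.3, 23.9 and 24.3 CPM in sh-APP, 23.5, 17.3 and 18.3 CPM in anti-Abeta, and 15.4 and 16.4 CPM in control. The sh-APP libraries were the highest, and it rose by 0.66 ± 0.14 in sh-APP (adjusted p = 0.00173). Ptx3, a secreted pentraxin, had 50.9, 40.4 and 50.2 CPM in sh-APP, 26.5, 25.4 and 29.5 CPM in anti-Abeta, and 33.1 and 28.7 CPM in control, and sh-APP exceeded anti-Abeta by 0.79 ± 0.11 (adjusted p = 0.000883). Cd14, a receptor for bacterial lipopolysaccharide, rose by 0.44 ± 0.12 in sh-APP (adjusted p = 0.00756). Tgm1, a transglutaminase, was called higher there too (0.68 ± 0.21, adjusted p = 0.0160), but not on leaving out control replicate 1 (adjusted p = 0.108) or 2 (0.0515). Sphk1, which makes sphingosine 1-phosphate, had 0.41 ± 0.25 (adjusted p = 0.187). Ptgs2, the inducible prostaglandin synthase, was at -0.27 in sh-APP (adjusted p = 0.340) and was the 1 further A2 gene called in anti-Abeta (-0.70 ± 0.23, adjusted p = 0.0370). That call was lost on leaving out control replicate 1 (adjusted p = 0.140), control replicate 2 (0.166), or either of anti-Abeta replicates 1 and 3 (0.105 and 0.112).

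**Figure D3:**
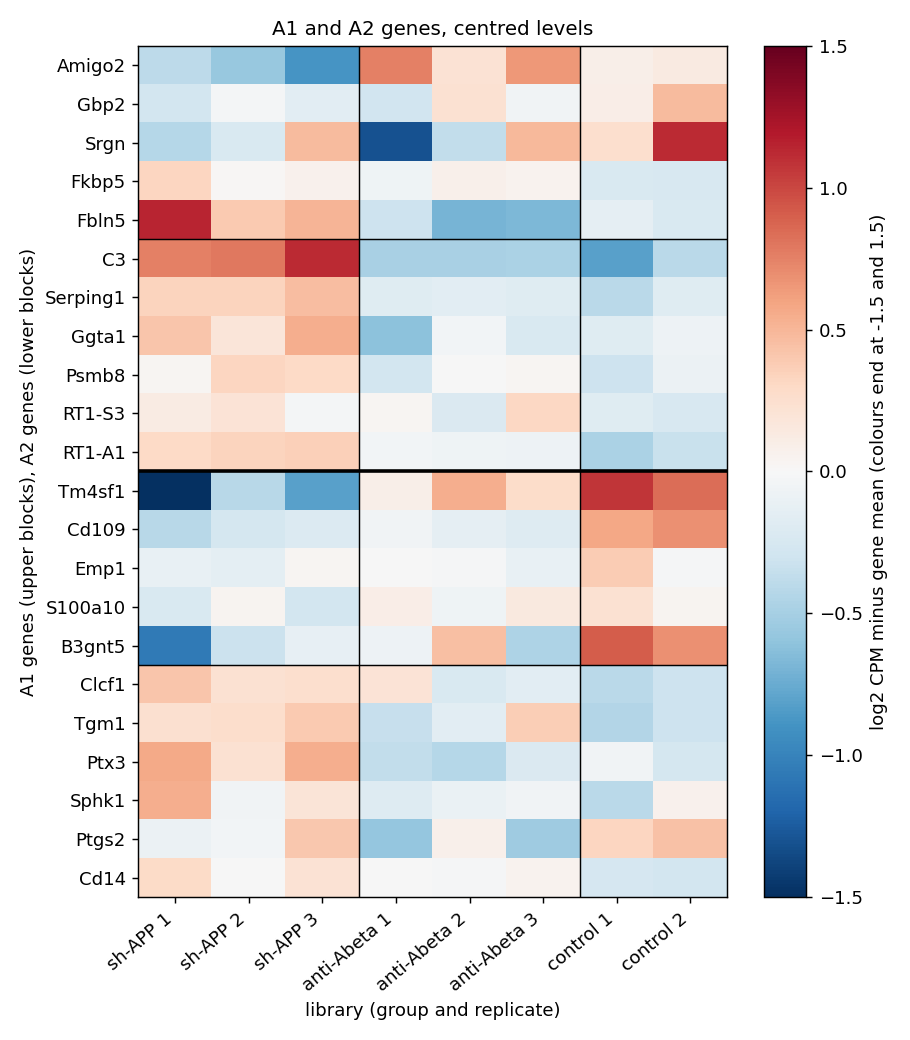
Log2 CPM minus the gene's mean over the 8 libraries (colour) for A1 genes (upper blocks) and A2 genes (lower blocks). Columns run from sh-APP to anti-Abeta to control. Tm4sf1, Cd109 and B3gnt5 are highest in the control libraries, while C3 is highest in the sh-APP libraries.

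Genes that work with the A2 members were read next, as companion lists. In the list of 6 glycosphingolipid enzymes around B3gnt5, 5 were tested, and 3 fell in sh-APP with 0 higher (the same at an unadjusted p under 0.05, with DESeq2 and with limma-voom). That is 60% called, beside 53.7% of all tested genes (27.9% lower). Ugcg, which makes glucosylceramide, averaged 23.7 CPM in sh-APP, 35.5 CPM in anti-Abeta and 49.3 CPM in control, a fold change of -1.06 ± 0.15 in sh-APP (adjusted p = 0.000119). B4galt6, which adds galactose to make lactosylceramide, fell by 0.94 ± 0.084, and B3galnt1, which makes globoside, by 0.86 ± 0.067. The same 3 were called lower in anti-Abeta, at -0.47 for Ugcg, -0.47 for B4galt6 and -0.47 for B3galnt1, beside 29.2% of all tested genes called (16.6% lower). In sh-APP against anti-Abeta they were called lower too, with fold changes of -0.58 for Ugcg, -0.48 for B4galt6 and -0.40 for B3galnt1, beside 26.1% called (16% lower). With control replicate 1 left out, the anti-Abeta calls of Ugcg and B4galt6 were lost. That of Ugcg was also lost with library totals (adjusted p = 0.0923) and without anti-Abeta replicate 1 (0.0890) or 3 (0.119), among others. B4galt5 and St3gal5 were called in neither arm.

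Beside Cd109, 6 TGF-beta genes were listed, 4 of receptors (Tgfbr1, Tgfbr2, Tgfbr3 and Eng) and 2 of inhibitors of the pathway (Smurf2 and Smad7). Of these, 2 fell in sh-APP and 0 rose (the same at an unadjusted p under 0.05, with DESeq2 and with limma-voom), 33.3% called beside 53.7% of all tested genes. Tgfbr1, the type I receptor, averaged 17.97 CPM in sh-APP, 28.3 CPM in anti-Abeta and 44.6 CPM in control, with -1.31 ± 0.13 in sh-APP (adjusted p = 1.06e-05) and -0.66 ± 0.13 in anti-Abeta (adjusted p = 0.00522). The anti-Abeta call was lost when control replicate 1 was left out (adjusted p = 0.0518). Smurf2, a ubiquitin ligase that acts on the receptors, fell by 0.54 ± 0.12 in sh-APP (adjusted p = 0.00173). Tgfbr2, the type II receptor, was called higher in anti-Abeta (0.59 ± 0.13, adjusted p = 0.00689, and 0.0897 when control replicate 1 was left out). Sh-APP was below anti-Abeta for Tgfbr2 by the direct test (-0.48 ± 0.11, adjusted p = 0.00943).

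Among 7 genes of annexins, S100 proteins and plasminogen activation near S100a10, 3 were called higher (Anxa2, S100a11 and S100a6) and 3 lower (Anxa1, Plau and Plat) in sh-APP (2 and 3 with DESeq2 and with limma-voom), 85.7% called beside 53.7% of all tested genes. Of 18 alternative fits, the Plat call was kept in only 5 and the S100a6 call in only 8. Both were lost with the replicate block (adjusted p = 0.113 and 0.101) and without control replicate 1, among others. Anxa2, the partner of p11, averaged 129.5 CPM in sh-APP, 94.5 CPM in anti-Abeta and 81.9 CPM in control, and rose by 0.66 ± 0.085 in sh-APP (adjusted p = 4.94e-05) while S100a10 stood at -0.28. Anxa1 fell by 0.45 ± 0.085 in sh-APP (adjusted p = 0.000676). Plau, urokinase, had -0.45 ± 0.13 in sh-APP, a call lost when control replicate 1 was left out (adjusted p = 0.209). S100a11 had 0.44 ± 0.14, a call lost on leaving out control replicate 1 (adjusted p = 0.0904), control replicate 2 (0.0630) or sh-APP replicate 2 (0.0675).

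Of 8 genes of gp130 and STAT3, which are linked to the A2 set, 3 rose in sh-APP (Socs3, Stat3 and Cntfr) and 2 fell (Jak2 and Osmr), 62.5% called beside 53.7% of all tested genes. Socs3, the inhibitor that STAT3 induces, averaged 159.8 CPM in sh-APP, 119 CPM in anti-Abeta and 80.6 CPM in control. It rose by 0.99 ± 0.10 in sh-APP (adjusted p = 1.41e-05) and 0.56 ± 0.10 in anti-Abeta (adjusted p = 0.00377, and 0.0749 when control replicate 1 was left out). Jak2, a kinase of the receptor, fell by 0.70 ± 0.10 in sh-APP (adjusted p = 0.000141). The Osmr call in sh-APP was lost with library totals (adjusted p = 0.0642). Both genes were called lower in anti-Abeta too (adjusted p = 0.00468 for Jak2 and 0.0434 for Osmr). Of 18 alternative fits, that Jak2 call was kept in 17 and that Osmr call in 11. In anti-Abeta 37.5% of the list was called, beside 29.2% of all tested genes.

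**Figure D4:**
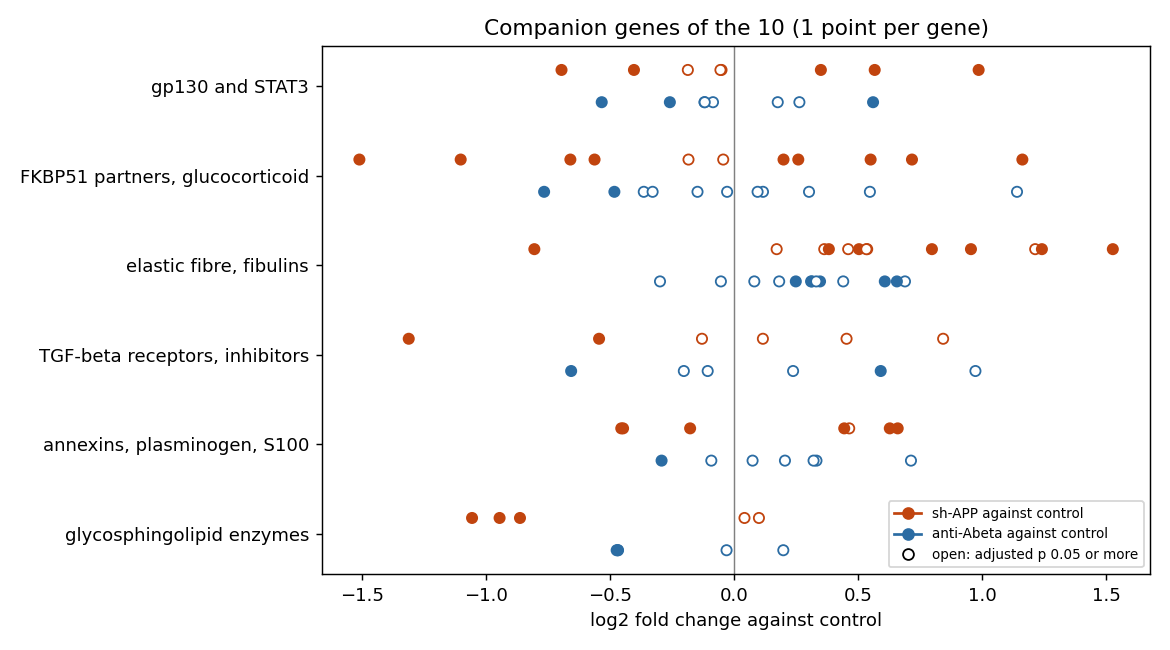
Log2 fold change against control (x axis, 1 point per gene) for 6 companion lists, in sh-APP and anti-Abeta. Filled points were called. The 3 called glycosphingolipid enzymes lie left of 0 in both arms, and the called elastic fiber genes other than Lox lie right of 0.

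On the A1 side, 15 elastic fiber genes were listed beside Fbln5 and 13 were tested, of which 6 rose and 1 fell in sh-APP. The share called, 53.8%, was that of all tested genes (53.7%), near enough that the count is no result about the list. Fbln2, another fibulin, averaged 535 CPM in sh-APP, 292 CPM in anti-Abeta and 185 CPM in control, and rose by 1.53 ± 0.20 in sh-APP (adjusted p = 4.94e-05). Fbln1 rose by 0.96 ± 0.13, Ltbp4, which binds latent TGF-beta on the fibers, by 1.242 ± 0.093, and Efemp2, fibulin-4, by 0.80 ± 0.082. The 1 that fell was Lox, which crosslinks elastin (-0.80 ± 0.20, adjusted p = 0.00528, and 0.0948 when control replicate 1 was left out). In anti-Abeta 6 rose and 0 fell by edgeR and limma-voom, 5 and 0 by DESeq2, and 7 and 0 at an unadjusted p under 0.05, 46.2% called by edgeR beside 29.2% of all tested genes (12.7% higher). Ltbp4, at 0.61 in anti-Abeta, was called there with each library left out. Fbln2 (0.66) and Efemp2 (0.25) were called there, but each call was kept in only 11 of 18 alternative fits. Fbln2 was lost when control replicate 2 was left out, with DESeq2 (adjusted p = 0.0537) and with only the 2 groups compared (0.0890), among others. Efemp2 was lost when control replicate 1 was left out, with the replicate block (adjusted p = 0.0595) and without anti-Abeta replicate 1 (0.0692), among others. Fbln1 was not called there (0.33, adjusted p = 0.0633).

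Of 12 genes tied to FKBP51 and the glucocorticoid receptor, 11 were tested, and 5 rose and 4 fell in sh-APP (3 and 4 with limma-voom), 81.8% called beside 53.7% of all tested genes (25.8% higher and 27.9% lower). Nr3c1, the receptor itself, averaged 55.5 CPM in sh-APP, 62.8 CPM in anti-Abeta and 87.7 CPM in control, with -0.66 ± 0.073 in sh-APP (adjusted p = 1.87e-05) and -0.48 ± 0.074 in anti-Abeta (adjusted p = 0.00226). Ptges3, the HSP90 cochaperone p23, fell by 1.51 ± 0.12 in sh-APP and 0.77 ± 0.12 in anti-Abeta. Known targets of the receptor divided: Sgk1, a kinase, fell by 1.10 ± 0.12 in sh-APP, while Cebpd, a transcription factor, rose by 0.55 ± 0.12 (adjusted p = 0.00238, and 0.0546 when control replicate 1 was left out).

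Among receptors and factors for the cytokines that induce A1 genes, Tnfrsf1a, Rela, Nfkb1 and Irf1 rose in sh-APP and Il1rap fell (the call of Irf1 had an adjusted p of 0.0960 when control replicate 1 was left out). Of the 10 genes in this list 60% were called in sh-APP, beside 53.7% of all tested genes. That is near enough that the count is no result about the list. Rela and Nfkb1 were called higher in anti-Abeta too (adjusted p = 0.0121 and 0.0110), calls lost when control replicate 1 was left out. In anti-Abeta 30% of the list was called, beside 29.2% of all tested genes. Tnfrsf1a, a receptor of tumor necrosis factor, averaged 387 CPM in sh-APP, 309 CPM in anti-Abeta and 266 CPM in control. Il1rap, the accessory chain of the interleukin 1 receptor, averaged 111 CPM in sh-APP, 161 CPM in anti-Abeta and 177 CPM in control. By the direct test sh-APP differed from anti-Abeta by 0.33 ± 0.071 for Tnfrsf1a (adjusted p = 0.00624) and by -0.54 ± 0.078 for Il1rap (adjusted p = 0.00105). Of 2 other guanylate-binding genes tested, Gbp4 and Gbp5, 0 were called in sh-APP by edgeR, DESeq2 or limma-voom, and 1 was lower at an unadjusted p under 0.05. By edgeR 53.7% of all tested genes were called there.

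The genes most like a member were found by the root mean square difference of centred log2 CPM over the 8 libraries, among 10093 genes with a mean of at least 5 CPM. For Tm4sf1 these were an unnamed gene, AABR07002784.1 (0.0986), and Tmprss11f (0.189). AABR07002784.1 stood at 8.87, 22.9 and 17.5 CPM in sh-APP, 26.6, 38.7 and 33.5 CPM in anti-Abeta, and 61.7 and 51.4 CPM in control. For Cd109 they were Ireb2 (0.0678) and Timm9 (0.0811), and for B3gnt5 Gabra4 (0.119) and Tbc1d8b (0.141). For Fbln5, searched among 10094 genes, they were Col12a1 (0.233) and Aldh1l2 (0.277), and for Srgn the nearest gene, Cfap69, was at 0.450.

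Markers of other cell types also differed between the groups, and their part in the changes above was not tested. Endothelial markers, of which 7 of 8 were in the table, summed to 8.56 to 10.04 CPM in sh-APP, 6.97 to 8.71 CPM in anti-Abeta, and 6.08 and 6.67 CPM in control. Cldn5 had no count in any library. Of the 4 tested, Kdr and Egfl7 were called higher in sh-APP, while Flt1 was at -0.51 ± 0.35 (adjusted p = 0.245) and Tek at -3.89 ± 1.99 (adjusted p = 0.120). Most of the sum in sh-APP was Egfl7, which averaged 6.52 CPM in sh-APP, 3.78 CPM in anti-Abeta and 2.55 CPM in control. Neuron markers (8 of 8 tested, 2 higher and 3 lower) summed to 144 to 155 CPM in sh-APP, 225 to 289 CPM in anti-Abeta, and 330.4 and 357 CPM in control. Most of that was Map2, which averaged 104 CPM in sh-APP, 173 CPM in anti-Abeta and 246 CPM in control. Map2, Snap25 and Elavl4 were the 3 called lower, and Rbfox3 (0.72) and Tubb3 (1.00) the 2 called higher. Oligodendrocyte markers (8 of 8 tested, 1 higher and 2 lower) summed to 3142 to 3295 CPM in sh-APP, 3134 to 3481 CPM in anti-Abeta, and 2664 and 2776 CPM in control. Mural and fibroblast markers (7 of 8 tested, 2 higher) summed to 39.1 to 42.6 CPM in sh-APP, 32.7 to 40.9 CPM in anti-Abeta, and 27.9 and 30.6 CPM in control. Melanocyte and melanoma markers (4 of 8 tested, 2 lower) summed to 2201 to 2394 CPM in sh-APP, 3484 to 3761 CPM in anti-Abeta, and 4229 and 4299 CPM in control. Nearly all of that was Gpnmb, and Mlana had at most 1 count in a library.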

How the data were processed

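Raw read counts per gene symbol, as the authors deposited them, were analysed for 8 libraries of rat astrocytes. The submitters' processing notes name build rn6 and the tools DESeq2 1.24.0, HTSeq 0.11.1, SAMtools 1.9, STAR 2.6.0a, Trimmomatic 0.36 and FastQC 0.11.7, without roles. No source used here says whether counting used strand, so overlapping genes may share reads.

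One model in edgeR 4.0.16 (R 4.3.3) covered all libraries; its single factor was the group, which left 5 residual degrees of freedom. Genes passed filterByExpr (minimum count 10, minimum total 15), which left 14445 of 28546 entries. TMM factors were 1.04 to 1.06 in sh-APP, 0.987 to 1.03 in anti-Abeta and 0.901 to 0.923 in control. Contrasts used the robust quasi-likelihood test with Benjamini-Hochberg adjustment over all tested genes, and SE is the fold change over the square root of F. DESeq2 1.42.0 and limma-voom (limma 3.58.1) were alternatives, beside other scalings, filters, a replicate block and leaving out each library. The code was tested on simulated data. At 34250464 or more counts per library, counting error weighs most on low genes. Srgn had 1 to 22 counts per library, and the lowest library had 66 for Amigo2 and 58 for Fbln5.

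Members, lists and tests were chosen with earlier results of these data known. Named are all members, every tested gene of the further A1 and A2 lists, and up to 4 called genes per companion list with the smallest p, besides genes of counts of 5 or fewer. Ugt1a1 and Iigp1 were not matched in the table, and Slc10a6 was too low to test. Promoters and gene overlaps come from RefSeq on GRCr8. One gene of a companion list is not reported here.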

Additional observations from a re-analysis of the deposited data

Results flagged for a closer look

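For 3 of the 10 genes the arms differed by the direct test of sh-APP against anti-Abeta (edgeR's quasi-likelihood test, Benjamini-Hochberg adjusted over all tested genes). The same test called 26.1% of all tested genes, so the count of 3 is near the share of all genes. Amigo2 differed by -1.19 on the log2 scale (adjusted p = 0.00304), with 1.51 to 2.17 CPM in sh-APP and 3.35 to 4.91 CPM in anti-Abeta. Fbln5 differed by 1.33 (adjusted p = 0.00358), with 3.13 to 5.34 CPM in sh-APP and 1.42 to 1.88 CPM in anti-Abeta. Tm4sf1 differed by -1.19 (adjusted p = 0.00403), with 3.60 to 8.23 CPM in sh-APP and 11.7 to 16.1 CPM in anti-Abeta. In each case all 3 sh-APP libraries lay on one side of all 3 anti-Abeta libraries, as they did for 41.3% of all tested genes. For Amigo2 and Fbln5 the fold changes against control had opposite signs in the arms, and those in anti-Abeta were not called.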

How the results depend on the processing

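In sh-APP against control, the A1 members called were 4, 2 with library totals and 0 to 4 with 1 library left out (0 without control replicate 2, 1 without control replicate 1, 2 without sh-APP replicate 1). The A2 members called were 4 there, 3 to 5 with 1 left out. In anti-Abeta against control, the A1 members called were 0, 1 with library totals, 1 with the replicate block and 0 to 1 with 1 left out. The A2 members called were 1, 2 with RLE factors, 2 with a filter of 1 CPM in 3 libraries, 2 with the replicate block, 3 with DESeq2, 3 with limma-voom, 3 with only the groups compared, and 1 to 3 with 1 left out. In sh-APP against anti-Abeta, 1 A2 member was called, 1 to 2 with 1 left out. Genes called among all tested ranged over 5942 to 7954 (sh-APP against control), 439 to 4775 (anti-Abeta against control, 439 without control replicate 1, 2431 without control replicate 2, 2594 without anti-Abeta replicate 3) and 2233 to 3582 (between arms) with 1 left out. No call of a member changed sign. Uncalled fold changes that did, in anti-Abeta against control, were S100a10 (0.080 with library totals, -0.17 to 0.012 with 1 left out), Ggta1 (0.0033 with library totals), and with 1 left out C3 (-0.087 to 0.33), Serping1 (-0.0033 to 0.23) and Sphk1 (-0.20 to 0.30). Between arms they were Emp1 (0.0074 with upper-quartile factors, 0.025 with library totals, -0.082 to 0.0081 with 1 left out), and with 1 left out Gbp2 (-0.25 to 0.032), Srgn (-0.22 to 1.23) and RT1-S3 (-0.055 to 0.20). Plat was at 0.028 in sh-APP with library totals, against -0.18. Library totals moved the median of all genes by 0.20 (sh-APP against control) and 0.15 (anti-Abeta against control). The cause of these changes was not tested. Srgn had no value under the 1 CPM filter. Whether replicate numbers pair the libraries was not settled. Deviations from group means of 7 same-number pairs correlated at -0.14 to 0.24, those of 14 other pairs at -0.35 to 0.17. The deviations of the 2 controls mirror each other, so correlations with them come with opposite signs. Between sh-APP and anti-Abeta, same-number libraries stood at 0.24, 0.23 and -0.14 for replicates 1, 2 and 3.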

Other observations

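Relatives of 3 members were measured beside them (edgeR). Emp3 and Emp2, of the same family as Emp1, rose in sh-APP by 0.56 ± 0.10 (SE, adjusted p = 0.000531) and 0.40 ± 0.11 (adjusted p = 0.00692, and 0.0716 when control replicate 2 was left out), while Emp1 was at -0.27 (adjusted p = 0.0583). Pmp22, of that family too, was at -0.031 (adjusted p = 0.789). Amigo1 had 0.46 ± 0.15 in sh-APP (adjusted p = 0.0232), a call lost on leaving out control replicate 1 (adjusted p = 0.101), control replicate 2 (0.0764), sh-APP replicate 1 (0.0861) or sh-APP replicate 3 (0.0522), while Amigo2 was at -0.74. S100a6 had 0.63 ± 0.25 in sh-APP (adjusted p = 0.0470), while S100a10 was at -0.28. The S100a6 call was kept in only 8 of 18 alternative fits. It was lost with DESeq2 (adjusted p = 0.0533), limma-voom (0.0621) and the replicate block (0.101), and without sh-APP replicate 2 (0.113) or 3 (0.117), among others. Differences between relatives were not tested.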
